A study of Mus musculus with 8 samples.

Results

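The 10 genes described here encode secreted glycoproteins of the extracellular matrix. They are the fibulin genes *Efemp1*, *Efemp2*, *Fbln1* and *Fbln5*, the fibrillin gene *Fbn1*, the adhesive and matricellular genes *Fn1*, *Tnc*, *Thbs1* and *Postn*, and the matrix Gla protein gene *Mgp*. They were chosen by name, and each of the 10 symbols matched 1 Ensembl gene of the 43629 in the deposited count table. Fibrillins assemble into microfibrils, the scaffold on which elastic fibres form and that stores latent TGFβ and BMPs, and fibulins bridge fibrillin, elastin and cross-linking enzymes. Matricellular proteins such as tenascin-C, thrombospondin-1 and periostin change how cells attach and respond to growth factors rather than bearing load, while fibronectin links cells to matrix through integrins. Matrix Gla protein is carboxylated in a vitamin K-dependent step, and its loss lets cartilage and arteries calcify.

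The data come from Axin2CreERT2;R26RTdTomato mice, in which tamoxifen activates a Cre recombinase in Axin2-expressing cells and so turns these cells and their descendants red fluorescent. All 4 mice carried both alleles, received 3 daily tamoxifen injections from P23 and were analyzed at P30, so the zones compared share genotype, age and treatment. Mice 1 and 2 were male and mice 6 and 13 were female. From frozen sections of 8 μm, TdTomato-positive resting chondrocytes and unlabeled, flattened proliferative chondrocytes at least 50 μm from the secondary ossification center were cut by laser microdissection. Each mouse gave 1 library per zone, hence n = 4 in each zone and pairs within mice. The sample labels name tibiae, while the study's methods name distal femur and proximal tibia. Resting chondrocytes are the slowly dividing reserve next to the secondary ossification center, and proliferative chondrocytes are the dividing cells of the columns below them. The label defines Axin2-lineage cells, so resting cells without label were not sampled by design.

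The 4 resting libraries held between 192882 and 462044 counts on genes, and the 4 proliferative libraries between 249284 and 631474. A count of 0 allows up to 3 counts, which is 5.97 to 14.7 CPM in resting libraries and 4.81 to 12.4 CPM in proliferative libraries. CPM here is the count scaled to a common library size with edgeR's TMM factors. These limits and all counting intervals cover counting error only, because RNA was amplified in 2 rounds and the reads carry no molecular identifiers. Chondrocyte markers (13 of 13 detected in both zones) summed to 8715 to 20969 CPM in resting and 35987 to 62374 CPM in proliferative libraries. The 9 osteoblast markers, all detected in both zones, summed to 9944 to 37668 CPM in the resting zone against 870 to 4310 CPM in the proliferative zone. Most of that sum was *Col1a1* (5133 to 25866 against 152 to 2229 CPM) and *Col1a2* (3416 to 10565 against 437 to 1573 CPM). *Ibsp* (292 to 967 against 0 to 142 CPM), *Bglap* (11.9 to 97.2 against 0 to 1.71 CPM), *Bglap2* (11.9 to 72.9 against 0 to 4.15 CPM) and *Dmp1* (23.9 to 88.1 against 0 to 13.6 CPM) were also higher in the resting zone. The osteoblast factor *Sp7* was lower there (9.11 to 21.9 against 29.1 to 49.8 CPM). *Runx2* (111 to 206 against 186 to 223 CPM) and *Alpl* (60.2 to 183 against 61.6 to 89.3 CPM) overlapped. Osteoclast, neutrophil and erythroid lists were also higher in the resting zone, at 1430 to 4412, 2979 to 3674 and 1811 to 12026 CPM against 14.4 to 419, 0 to 522 and 0 to 1716 CPM. The 5 hypertrophic markers summed to 910 to 2135 CPM in resting libraries (4 detected) and 72.1 to 565 CPM in proliferative ones (5 detected), and they did not move together. *Mmp13* was higher in the resting zone (323 to 716 against 0 to 64.1 CPM), while *Col10a1* was lower (0 to 21.9 against 62.5 to 356 CPM) and *Ihh* had 0 counts in every resting library. Among resting libraries, that of mouse 6 had the highest chondrocyte sum (20969 CPM) and the lowest osteoblast sum (9944 CPM). In that library *Col1a1*, *Col1a2*, *Bglap*, *Bglap2* and *Dmp1* were lowest, but *Sp7*, *Alpl* and *Ibsp* were highest, so its osteoblast markers did not move together. Among proliferative libraries, that of mouse 1 had the highest osteoblast (4310 CPM), neutrophil (522 CPM) and erythroid (1716 CPM) sums. Results that rest on the resting library of mouse 6 are therefore given with and without it. The proliferative library of mouse 1 was left out for *Postn* and for the numbers of genes called, but not for the wider gene lists. In such tissue samples, fewer cells of a type and less RNA per cell cannot be told apart.

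Most of the genes lay higher in the resting zone. *Fn1*, *Fbn1* and *Tnc* rose there. *Efemp1* and *Postn* also rose but missed the threshold when certain mice or libraries were left out, *Mgp* missed it in the filtered fit and passed it in the fit over all genes, *Thbs1* and *Efemp2* had lower means in the resting zone without passing the test, and *Fbln1* and *Fbln5* were too sparse to tell. The zones were compared with edgeR's quasi-likelihood test, and a gene was called at a Benjamini-Hochberg adjusted p below 0.01 together with a log2 fold change (resting over proliferative) past 1 in either direction. Of the 10 genes, 4 passed the filter on low counts (*Efemp1*, *Fn1*, *Thbs1* and *Mgp*), and 2 of these 4 were called higher and 0 lower, where 11.0% of the 3793 genes tested were called higher and 6.93% lower. Of the 2, *Efemp1* had 1 to 3 counts in each proliferative library and passed the filter only through the zone in which it was high, so this count is a description. The other 6 were tested in a fit over all 17492 genes with a count. In that fit 6 of the 10 were called higher and 0 lower, beside 4.74% higher and 2.68% lower among all genes, and the median log2 fold change was 2.04 over the 10 genes and 0.16 over all genes. That fit placed genes shared with the filtered fit lower by 0.23 in log2 fold change, because its scaling factors differ. With the mouse as a block, 5 of the 10 were called higher (3.77% of all genes) and 0 lower (2.54%), and *Mgp* lost its call. Without the resting library of mouse 6, 4 of the 10 were called higher (4.60% of all genes) and 1 lower (3.54%). *Efemp1* and *Mgp* then lost their calls, and *Thbs1* gained one in the other direction. In 7 of the 10 genes the libraries of the zones did not overlap, 6 with the resting zone above and 1 with it below, beside 8.38% and 4.98% of all genes with a count. Among the 3793 genes above the filter these shares were 17.8% and 15.1%. Absence of overlap fixes a two-sided exact permutation p over 4 against 4 libraries at its smallest value, 0.0286, and exchange within mice could not give less than 0.125, so these p-values add nothing to the count of 7 genes.

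**Figure D1:**
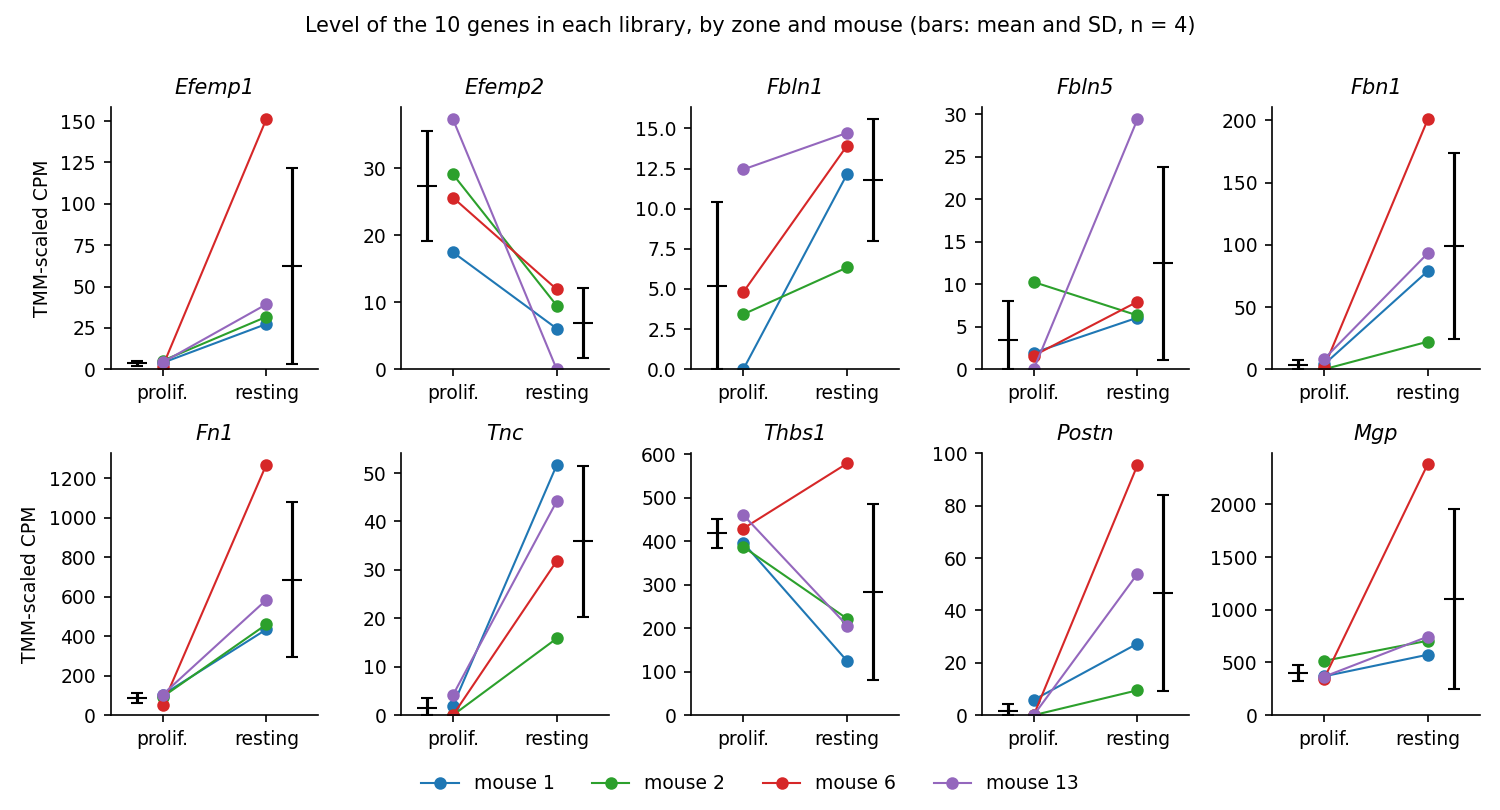
TMM-scaled CPM (vertical axes, linear from 0) of each of the 10 genes in the proliferative and resting library of each mouse, with lines joining the libraries of 1 mouse and black bars giving the mean ± SD (n = 4, drawn no lower than 0). Lines rise in 4 of 4 mice for *Efemp1*, *Fbln1*, *Fbn1*, *Fn1*, *Tnc*, *Postn* and *Mgp* and fall in 4 of 4 for *Efemp2*, and the resting library of mouse 6 is the highest library for *Efemp1*, *Fbn1*, *Fn1*, *Thbs1*, *Postn* and *Mgp*.

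**Figure D2:**
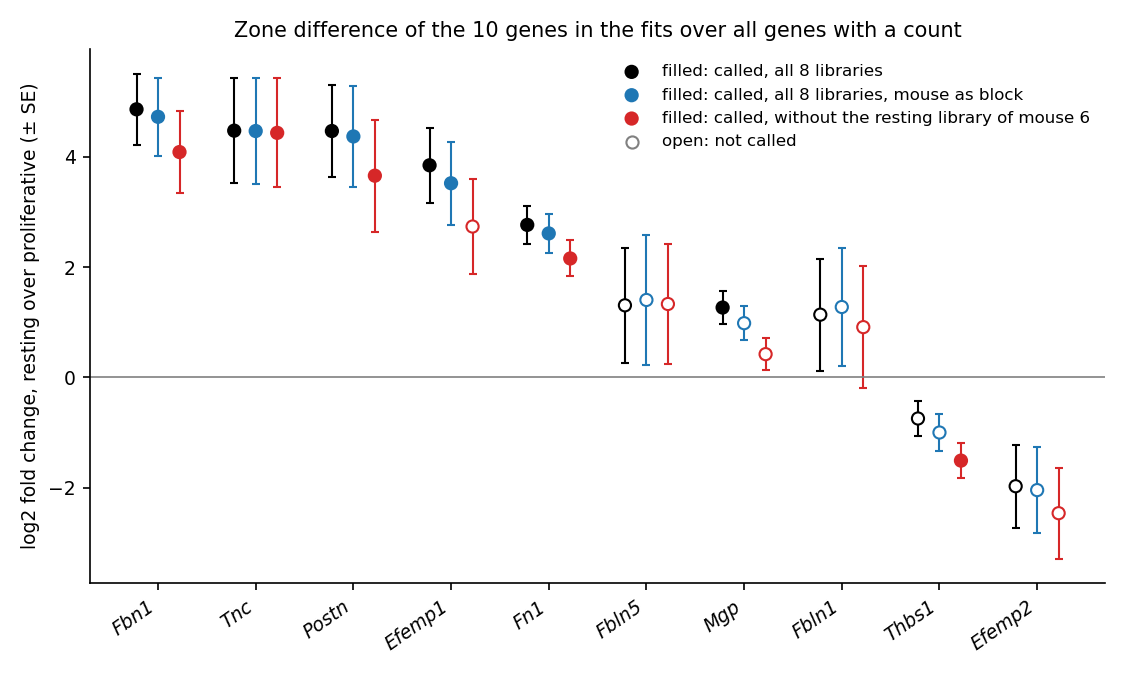
Log2 fold change of the resting over the proliferative zone (vertical axis, bars ± SE) in the fits over all genes with a count, for all 8 libraries, with the mouse as a block, and without the resting library of mouse 6. Filled points passed both thresholds: *Fbn1*, *Tnc*, *Postn* and *Fn1* in all 3 fits, *Efemp1* in 2, *Mgp* in 1, and *Thbs1* in the fit without the resting library of mouse 6.

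Promoter sequence is shown for 3 genes that rose together, *Efemp1*, *Tnc* and *Postn*, and for *Efemp2*, whose libraries lay the opposite way. Each stretch is the 250 bases before the transcription start of the RefSeq window (GRCm38.p6) nearest to the annotated start, read 5′ to 3′ on the gene's strand. Capitals mark a TATA box (TATAAA) or a GC box (GGGCGG), searched on both strands.
Efemp1, chr11:28852955-28853204, plus strand: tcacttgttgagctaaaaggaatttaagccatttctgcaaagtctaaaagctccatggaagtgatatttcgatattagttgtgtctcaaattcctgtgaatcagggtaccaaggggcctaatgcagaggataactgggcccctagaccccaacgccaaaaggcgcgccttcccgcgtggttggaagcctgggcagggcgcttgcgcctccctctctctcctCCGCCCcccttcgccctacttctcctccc
Efemp2, chr19:5473696-5473945, plus strand: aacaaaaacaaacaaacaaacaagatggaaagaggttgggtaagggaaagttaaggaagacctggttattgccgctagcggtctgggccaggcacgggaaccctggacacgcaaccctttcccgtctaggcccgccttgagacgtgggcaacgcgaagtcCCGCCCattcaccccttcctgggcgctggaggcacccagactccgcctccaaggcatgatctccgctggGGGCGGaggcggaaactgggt
Tnc, chr4:64047016-64047265, minus strand: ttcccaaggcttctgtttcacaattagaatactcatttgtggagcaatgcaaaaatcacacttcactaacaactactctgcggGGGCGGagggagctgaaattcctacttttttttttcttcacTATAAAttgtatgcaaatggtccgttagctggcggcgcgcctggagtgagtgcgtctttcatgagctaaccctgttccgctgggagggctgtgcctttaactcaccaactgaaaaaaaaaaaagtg
Postn, chr3:54360857-54361106, plus strand: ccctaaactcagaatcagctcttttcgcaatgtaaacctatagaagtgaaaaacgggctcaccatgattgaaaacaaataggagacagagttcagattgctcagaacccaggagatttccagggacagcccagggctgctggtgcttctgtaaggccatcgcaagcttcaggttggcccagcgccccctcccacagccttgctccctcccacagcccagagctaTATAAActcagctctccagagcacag
In *Postn* the TATA box began 26 bases before the start and no GC box letters were found. In *Tnc* both were found, the TATA box 126 and the GC box 167 bases before the start. *Efemp1* held 1 GC box (29 bases before the start) and *Efemp2* held 2 (90 and 21 bases). Of 32851 mouse promoter windows of this length, 12.4% held TATAAA, 32.7% GGGCGG, 33.8% the CCAAT box (CCAAT), 12.6% the TEAD motif (GGAATG) and 4.46% the AP-1 motif (TGACTCA). None of the last 3 motifs was found in the 4 windows printed. These matches describe letters only. RefSeq windows matched 7 of the 10 genes by symbol. *Fn1*, *Thbs1* and *Mgp* had no entry.

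*Efemp1* encodes fibulin-3, a short fibulin of cartilage and connective tissue, and lies at chr11:28853204-28926743 (GRCm38, plus strand). It had 27.3, 31.7, 151 and 39.3 CPM in the resting libraries of mice 1, 2, 6 and 13 and 3.88, 5.14, 1.60 and 4.15 CPM in their proliferative libraries. Every resting library lay above every proliferative one, and mouse 6 supplied both the highest and the lowest value. Means of 62.4 ± 59.4 and 3.69 ± 1.49 CPM (SD, n = 4) gave a log2 fold change of 4.07 (SE 0.73, adjusted p = 0.00127 by edgeR's quasi-likelihood test). With the mouse as a block it was 3.76 (adjusted p = 0.00342). Without the resting library of mouse 6 the gene no longer passed the filter, and in the fit over all genes the difference was 2.73 (SE 0.86, adjusted p = 0.0156), which is not a call. It was not called either without both libraries of mouse 6 (2.60, adjusted p = 0.0459, all genes) or, in the filtered fit, without both of mouse 13 (4.22, adjusted p = 0.0108). The resting mean of the other 3 mice was 32.8 ± 6.03 CPM (SD, n = 3).

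*Efemp2* encodes fibulin-4, which is needed for elastic fibre assembly and brings lysyl oxidase to its substrate. Its resting libraries held 2, 3, 6 and 0 counts and its proliferative libraries 9, 17, 16 and 9 counts in mice 1, 2, 6 and 13. On the CPM scale these were 6.08, 9.51, 11.9 and 0 against 17.5, 29.1, 25.6 and 37.3, so the zones did not overlap and the proliferative library was the higher one in 4 of 4 mice. The log2 fold change of -1.98 (SE 0.75) was not called, with an adjusted p of 0.067 (edgeR, 17492 genes). *Efemp2* shares 173 exon bases with *Mus81* on the opposite strand, and since the counting strand is not given in the sources used here, reads of the 2 genes may not be told apart. *Mus81* held 1 to 8 counts in resting and 7 to 13 in proliferative libraries. Set side by side as levels per length, *Efemp1* lay above *Efemp2* in 4 of 4 resting libraries (13.4 to 74.2 against 0 to 3.15 CPM per kb of exon), and *Efemp2* lay above *Efemp1* in 4 of 4 proliferative ones (4.61 to 9.85 against 0.786 to 2.52 CPM per kb). Fibulin-3 and fibulin-4 transcripts thus stood in opposite order in the 2 zones.

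*Fbln1*, which encodes the long fibulin-1 of basement membranes and fibronectin-rich matrix, had 12.2, 6.34, 13.9 and 14.7 CPM in resting and 0, 3.42, 4.81 and 12.4 CPM in proliferative libraries. These rest on 16 and 8 counts per zone, and the zones overlapped, although the resting library was the higher one in 4 of 4 mice. The log2 fold change was 1.14 (SE 1.01, adjusted p = 0.50, edgeR over all genes). *Fbln5* encodes fibulin-5, an integrin-binding fibulin of elastic fibres, and had 6.08, 6.34, 7.96 and 29.4 CPM against 1.94, 10.3, 1.60 and 0 CPM. With 14 and 8 counts per zone the difference of 1.31 (SE 1.04, adjusted p = 0.48, edgeR) was not detectable at this depth, and in mouse 2 the proliferative library was the higher one.

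*Fbn1* encodes fibrillin-1, the main microfibril protein, mutated in Marfan syndrome, and lies at chr2:125300594-125507993 (minus strand). Its counts were 26, 7, 101 and 19 in the resting libraries of mice 1, 2, 6 and 13 and 2, 0, 1 and 2 in the proliferative ones, or 79.0, 22.2, 201 and 93.2 CPM against 3.88, 0, 1.60 and 8.29 CPM. The lowest resting library, that of mouse 2, still lay above the highest proliferative library. In the fit over all genes the log2 fold change was 4.86 (SE 0.65, adjusted p = 8.74e-12 by edgeR), 4.73 with the mouse as a block (adjusted p = 1.99e-09) and 4.09 without the resting library of mouse 6 (adjusted p = 1.39e-06). Its 153 resting against 5 proliferative counts put *Fbn1* past the threshold in every fit that tested it, with and without the filter, with log2 fold changes of 4.02 to 5.63. Where *Fbn1* passed the filter, it did so only through the resting zone. The related gene *Fbn2*, encoding fibrillin-2 and named here after its values were seen, had 26, 6, 6 and 2 counts in the resting and 3, 0, 0 and 0 in the proliferative libraries. The ratio of *Fbn1* to *Fbn2* counts was thus 1.00 in the resting library of mouse 1 and 16.8 in that of mouse 6.

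*Fn1* encodes fibronectin, the adhesive glycoprotein that integrins assemble into fibrils, and lies at chr1:71585520-71653200 (minus strand). Its values were 434, 460, 1269 and 584 CPM in the resting libraries of mice 1, 2, 6 and 13 and 103, 92.5, 52.9 and 104 CPM in the proliferative libraries. No library of one zone reached the other. Within mice the resting level was 4.22 (95% counting interval 3.06 to 5.90), 4.97 (3.61 to 6.93), 24.0 (16.9 to 35.2) and 5.63 (3.64 to 9.05) times the proliferative level, highest in mouse 6. These intervals cover no variation between mice or captures. Means were 687 ± 394 and 88.0 ± 24.0 CPM (SD, n = 4), with a log2 fold change of 2.98 (SE 0.39, adjusted p = 0.000265, edgeR). Without the resting library of mouse 6 it was 2.47 (adjusted p = 0.000131), and *Fn1* was called in every fit run, with and without the filter, at 2.13 to 3.21.

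*Tnc* encodes tenascin-C, a hexameric glycoprotein of developing and injured connective tissue that can interfere with adhesion to fibronectin, and lies at chr4:63959785-64047015 (minus strand). It had 17, 5, 16 and 9 counts in the resting libraries of mice 1, 2, 6 and 13 and 1, 0, 0 and 1 in the proliferative ones. On the CPM scale the resting values were 51.6, 15.8, 31.8 and 44.2, and the highest proliferative value was 4.15. With only 2 proliferative counts, the ratio of the summed levels was 34.2 with a 95% counting interval of 8.95 to 290. The fit over all genes gave a log2 fold change of 4.47 (SE 0.95, adjusted p = 8.14e-05, edgeR) and the mouse block gave 4.47 (adjusted p = 0.000121). Unlike the 7 genes whose highest resting library was that of mouse 6, *Tnc* had its highest resting level in mouse 1, and its difference was 4.43 (adjusted p = 0.00017) without the resting library of mouse 6.

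*Postn* encodes periostin, a fasciclin-domain protein of periosteum, ligament and other collagen-rich tissue that binds tenascin-C and fibronectin, and lies at chr3:54361109-54391037 (plus strand). The resting libraries of mice 1, 2, 6 and 13 held 9, 3, 48 and 11 counts (27.3, 9.51, 95.5 and 54.0 CPM). All 3 proliferative counts fell in the library of mouse 1 (5.82 CPM), the one with the highest osteoblast and marrow marker sums of its zone. Set against these 3 counts, the ratio of summed levels was 34.4 with a counting interval of 11.3 to 171. The log2 fold change was 4.47 (SE 0.83, adjusted p = 3.4e-06, edgeR over all genes), 4.37 with the mouse as a block (adjusted p = 7.17e-05) and 3.66 without the resting library of mouse 6 (adjusted p = 0.00466). It was 6.40 without that library and the proliferative library of mouse 1 (adjusted p = 0.000282), a setting added after the data were seen. Without the proliferative library of mouse 1 alone it was 7.16 (adjusted p = 5.34e-07). In the last 2 settings every remaining proliferative count is 0, so the fitted size depends on the small count that edgeR adds to each value. Without both libraries of mouse 6 it was 3.37 and lost its call (adjusted p = 0.0195), as it did in the filtered fit without the proliferative library of mouse 13 (4.40, adjusted p = 0.0142). Osteoblasts and fibroblasts are known to express *Postn*, *Tnc* and *Fbn1* too. The osteoblast list, a sum carried by *Col1a1* and *Col1a2*, was higher in resting libraries (9944 to 37668 against 870 to 4310 CPM). The fibroblast and perichondrium sum (11 of 12 markers detected in the resting zone) was also higher there (1141 to 1683 against 863 to 1081 CPM). So were its members *Col3a1* (105 to 267 against 0 to 15.5 CPM) and *Dcn* (200 to 361 against 23.3 to 37.3 CPM). *Col12a1* (431 to 667 against 450 to 716 CPM), *Col6a3* and *Lum* overlapped, and the tendon marker *Scx* had 0 counts in every resting library. The endothelial sum (8 of 8 detected in the resting zone) was higher too (314 to 434 against 170 to 229 CPM), as was *Pecam1* (14.7 to 60.2 against 0 CPM). Its largest members *Eng* and *Egfl7* overlapped. Among resting libraries the osteoblast sum was highest in mouse 1, as was *Tnc*, and lowest in mouse 6, where *Fbn1* and *Postn* were highest. The osteoblast markers split in mouse 6. *Col1a1*, *Col1a2*, *Bglap* (11.9 CPM, against 49.1 to 97.2 CPM), *Bglap2* and *Dmp1* were lowest there. *Ibsp* (967 CPM, against 292 to 668 CPM), *Alpl* (183 CPM, against 60.2 to 132 CPM) and *Sp7* were highest, and *Runx2* lay between. The part of these cell types in the zone differences was not tested.

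*Thbs1* encodes thrombospondin-1, a trimeric glycoprotein that activates latent TGFβ and binds CD36 and CD47, and lies at chr2:118111876-118127133 (plus strand). It had 125, 222, 579 and 206 CPM in the resting libraries and 396, 387, 429 and 460 CPM in the proliferative libraries of mice 1, 2, 6 and 13. The proliferative libraries lay close together at 418 ± 33.5 CPM, while the resting ones spread over 283 ± 202 CPM (SD, n = 4) and overlapped them through mouse 6 alone. Within mice the resting level was 0.315 (0.219 to 0.442), 0.573 (0.432 to 0.753), 1.35 (1.14 to 1.60) and 0.448 (0.306 to 0.644) times the proliferative level, with 95% counting intervals, below 1 in 3 mice and above 1 in mouse 6. The log2 fold change of -0.54 (SE 0.39, adjusted p = 0.32, edgeR) was not called, and neither was -0.78 with the mouse as a block (adjusted p = 0.12). Without the resting library of mouse 6, *Thbs1* was lower in the resting zone by the call rule, at -1.20 (adjusted p = 0.00368). Without both libraries of mouse 6 it was called at -1.20 (adjusted p = 0.009), and it was not in those libraries once the block was added (-1.23, adjusted p = 0.0114). The call thus depended on the resting library of mouse 6, the one mouse in which the resting level was the higher, and on the block. Its relative *Thbs2*, encoding thrombospondin-2, had 14, 2, 7 and 7 counts in resting and 2, 2, 0 and 1 in proliferative libraries.

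*Mgp* encodes matrix Gla protein, an inhibitor of cartilage and vessel calcification, and lies at chr6:136872435-136875823 (minus strand). The values were 574, 707, 2385 and 746 CPM in the resting and 369, 515, 348 and 365 CPM in the proliferative libraries of mice 1, 2, 6 and 13. All resting libraries lay above all proliferative ones, narrowly so for mouse 1 in the resting and mouse 2 in the proliferative zone. Within mice the resting level was 1.56 (1.27 to 1.91), 1.37 (1.15 to 1.64), 6.86 (5.93 to 7.97) and 2.04 (1.56 to 2.69) times the proliferative level. From means of 1103 ± 858 and 399 ± 78 CPM (SD, n = 4), the log2 fold change of 1.47 (SE 0.41) had an adjusted p of 0.0165 in edgeR's quasi-likelihood test, short of the threshold. It was 1.21 with the mouse as a block (adjusted p = 0.0319) and 0.73 without the resting library of mouse 6 (adjusted p = 0.0241). The fit over all genes called it at 1.27 (adjusted p = 0.0005), but not with the likelihood ratio test (1.26, adjusted p = 0.0343) or without the resting library of mouse 6 (0.42, adjusted p = 0.39). In the filtered set it was called by DESeq2 at 1.45 (adjusted p = 0.00518), the likelihood ratio test at 1.47 (adjusted p = 0.00476) and a stricter filter at 1.54 (adjusted p = 0.00856). *Ucma*, encoding another vitamin K-dependent cartilage protein, stood in a different ratio to *Mgp* in each zone. For each *Ucma* count there were 4.02, 4.74, 5.79 and 3.53 *Mgp* counts in the resting libraries of mice 1, 2, 6 and 13 and 0.888, 0.782, 0.770 and 0.978 in the proliferative libraries. Mouse 6 had the highest of these ratios in the resting zone and the lowest in the proliferative zone.

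To order the genes within a zone, levels were divided by exon length and given as CPM per kb, which assumes even coverage along the transcript. Amplification from the 3′ end can break this assumption, and coverage was not analysed here. In the resting zone *Mgp* stood first with 929 ± 723 CPM per kb, followed by *Fn1* (58.8 ± 33.7), *Thbs1* (46.6 ± 33.3), *Efemp1* (30.6 ± 29.2), *Fbn1* (8.15 ± 6.16), *Postn* (5.35 ± 4.30), *Tnc* (4.62 ± 2.01), *Fbln1* (2.70 ± 0.87), *Efemp2* (1.82 ± 1.37) and *Fbln5* (1.80 ± 1.64; SD, n = 4 each). *Mgp* alone had a range that did not meet that of the next gene, although *Fn1* lay above *Thbs1*, *Thbs1* above *Efemp1* and *Efemp1* above *Fbn1* in 4 of 4 libraries. In the proliferative zone the order was *Mgp* (336 ± 65.7), *Thbs1* (68.9 ± 5.52), *Fn1* (7.53 ± 2.05), *Efemp2* (7.23 ± 2.17) and *Efemp1* (1.81 ± 0.73), with the other 5 genes at 1.18 CPM per kb or less. *Mgp* and *Thbs1* were each separate from the next lower gene, *Fn1* and *Efemp2* overlapped, and the range of *Efemp2* lay above that of *Efemp1*. *Fn1* and *Thbs1* thus changed places between the zones, and *Efemp2* moved from the ninth to the fourth place. When the longest transcript replaced all exons as the length, *Postn* (8.92 CPM per kb) stood above *Fbn1* (8.26) in the resting zone. The longest annotated *Postn* transcript has 5223 bases in only 2 exons, against 8702 bases of all exons, so the place of *Postn* is uncertain. As a share of the counts on the 10 genes, which is not corrected for length and is read only between zones, *Mgp* took 41.2% to 50.3% in resting and 36.7% to 49.4% in proliferative libraries. *Fn1* took 26.7% to 32.4% against 6.11% to 11.4%, and *Thbs1* 9.28% to 14.9% against 37.1% to 49.6%. In these shares the library of mouse 6 lay among the other resting libraries for *Thbs1* and below them for *Fn1*.

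**Figure D3:**
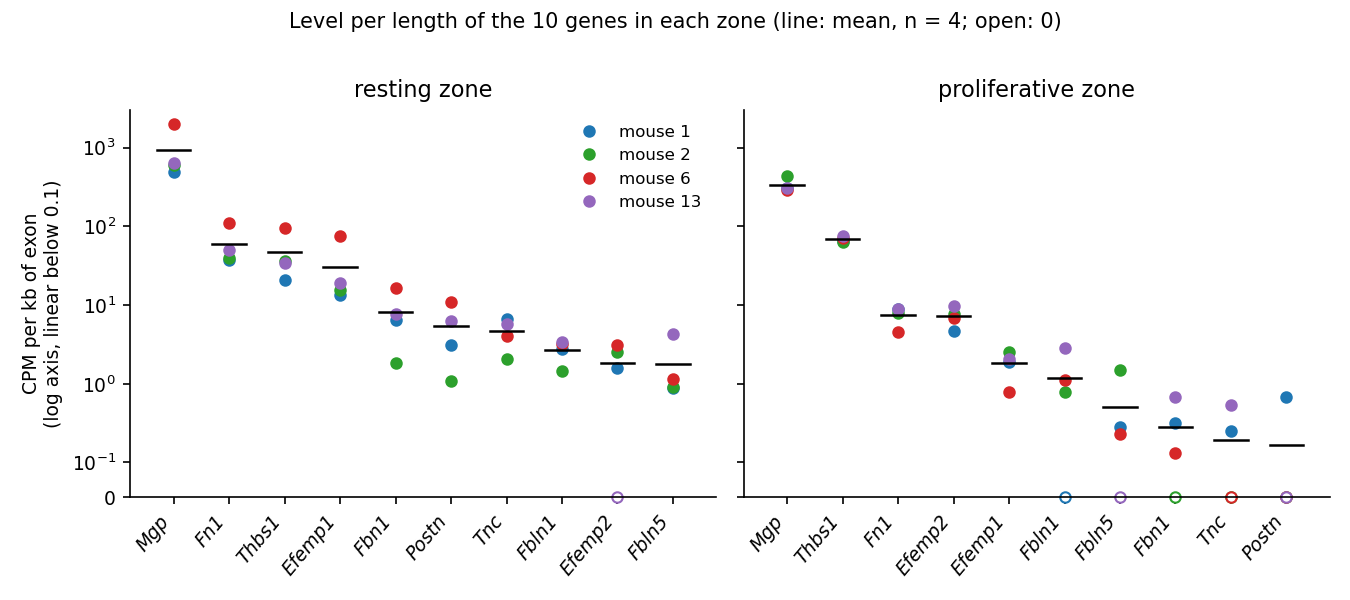
CPM per kb of exon (vertical axis, logarithmic above 0.1 and linear below) of the 10 genes in the resting and the proliferative zone, ordered by mean, with points for the library of each mouse, a line for the mean (n = 4) and open points for a count of 0. *Mgp* leads in both zones, *Fn1* is second in the resting zone and the third in the proliferative zone, and *Efemp2* rises from the ninth to the fourth place.

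The library of mouse 6 was the highest of the resting zone for 7 of the 10 genes. Relative to the mean of the other 3 resting libraries it was 4.61 times as high for *Efemp1*, 3.53 for *Mgp*, 3.15 for *Postn*, 3.14 for *Thbs1*, 3.10 for *Fbn1*, 2.58 for *Fn1* and 2.30 for *Efemp2*, and 1.26, 0.855 and 0.570 times for *Fbln1*, *Tnc* and *Fbln5*. The same library held 20969 CPM of chondrocyte markers against 8715 to 11596 CPM in the other resting libraries. Together the 10 genes made up 0.516% of its counts and 0.133% to 0.191% of those of the other resting libraries, against 0.0851% to 0.0974% in the proliferative zone. The part of cell composition in this was not tested.

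**Figure D4:**
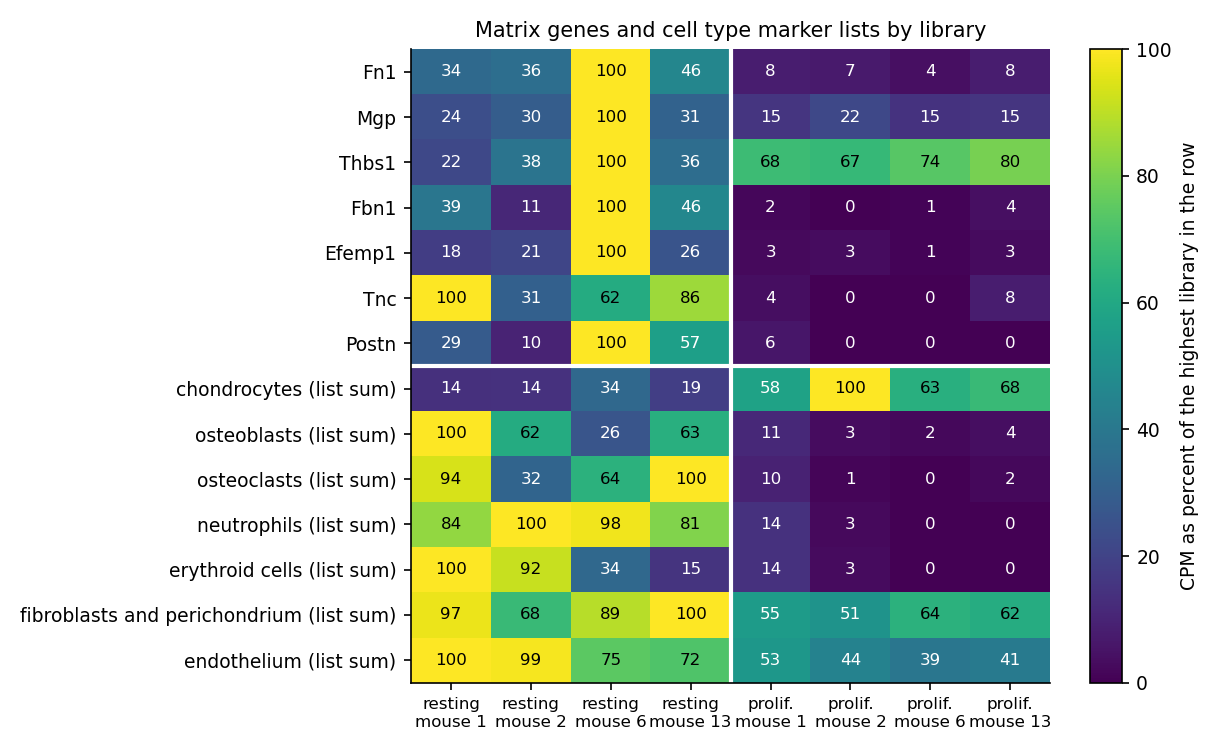
CPM as a percentage of the highest library in each row (color and printed number) for 7 of the 10 genes and the summed CPM of 7 cell type marker lists, in the 4 resting and 4 proliferative libraries. *Fn1*, *Mgp*, *Thbs1*, *Fbn1*, *Efemp1* and *Postn* reach 100 in the resting library of mouse 6. The osteoblast list, a sum carried by *Col1a1* and *Col1a2*, stands at 26 there. *Tnc* and the osteoblast list reach 100 in the resting library of mouse 1.

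Because 2 mice were male and 2 female, the zone difference was also compared between the sexes with an interaction term. None of the 10 genes had an adjusted p below 0.01 for the interaction in edgeR, where 0 of the 3793 genes in the filtered fit and 27 of the 17492 in the fit over all genes did. Of the 10 genes, 3 had an unadjusted p below 0.05, where 250 genes in the filtered fit and 856 in the fit over all genes did. *Fn1* differed by 2.19 in log2 between the zones in males and 3.64 in females (adjusted p = 0.73 for the difference), and *Mgp* by 0.53 and 2.15 (adjusted p = 0.72, edgeR). For *Postn* the adjusted p of the difference was also 0.72, and no female value is given because both female proliferative libraries held 0 counts. The female values rest on mouse 6 as 1 of 2 mice.

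The surrounding families were followed with 4 wider gene lists that exclude the 10 genes. Their counts above the filter are also given without the resting library of mouse 6, where 13.0% of all genes above the filter were called higher and 9.61% lower. Some listed genes passed the filter only through the zone in which they were high, so these counts are descriptions. Of 28 elastic fibre and microfibril genes, 6 passed the filter, of which 0 were called higher and 1 lower in the resting zone, beside 11.0% and 6.93% of all genes tested (median log2 fold change -0.25, against 0.08 over all genes tested). Leaving out the resting library of mouse 6 made these 1 and 2 of 7. *Fbln7*, a cell-adhesive fibulin, was the gene called lower with all 8 libraries, at 21.1 ± 12.9 CPM in resting and 86.4 ± 7.95 CPM in proliferative libraries and a log2 fold change of -1.96 (SE 0.43, adjusted p = 0.00416, edgeR). *Loxl2*, a collagen cross-linking enzyme, missed the threshold at -1.98 (adjusted p = 0.0106) and passed it without the resting library of mouse 6 (-2.73, adjusted p = 0.00183). *Ltbp3*, which holds latent TGFβ on microfibrils, had -0.44 (adjusted p = 0.20) and the microfibril-associated gene *Mfap4* 0.29 (adjusted p = 0.52). Once the low-count genes were included, 3 of the 25 with a count were called higher and 2 lower, beside 4.74% and 2.68% of all genes. The 3 were *Fbn2* (3.79, adjusted p = 0.00112), the elastin and collagen cross-linking enzyme gene *Lox* (3.67, adjusted p = 4.97e-08) and its relative *Loxl1*, with 20 resting and 0 proliferative counts (adjusted p = 0.00273), all named after their values were seen. Elastin itself (*Eln*) had 0 counts in all 8 libraries, so the fibrillin and fibulin transcripts were measured without detectable elastin transcript.

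Of 27 other matricellular and adhesive genes, 9 passed the filter, and 2 were called higher and 2 lower, beside 11.0% and 6.93% of all genes tested (median 0.33). These became 2 and 4 of 10 without the resting library of mouse 6. *Fstl1*, a secreted BMP-binding glycoprotein related to SPARC, had 142 ± 70.3 against 19.4 ± 7.11 CPM and a log2 fold change of 2.92 (SE 0.44, adjusted p = 0.000509, edgeR). *Spp1*, encoding osteopontin of bone, macrophages and hypertrophic cartilage, had 342 ± 223 against 28.3 ± 46.1 CPM and 3.54 (adjusted p = 0.00847, edgeR). Of its 58 proliferative counts 50 were in mouse 1, and it passed the filter only through the resting zone. Without the resting library of mouse 6, *Spp1* lost its call in the filtered fit (2.95, adjusted p = 0.0207) and kept it over all genes (2.64, adjusted p = 1.44e-09). In the other direction, the basement membrane gene *Nid2* had 36.7 ± 30.3 against 284 ± 9.81 CPM (-2.83, SE 0.44, adjusted p = 0.000596), and *Tgfbi*, the fasciclin-domain relative of *Postn*, had 11.9 ± 8.50 against 72.5 ± 20.7 CPM (-2.63, adjusted p = 0.00509). The 2 related genes *Postn* and *Tgfbi* thus lay on opposite sides of the zone comparison. With 15 resting counts, *Tgfbi* passed the filter only through the proliferative zone. With low-count genes included, 8 of the 24 with a count were called higher and 4 lower, beside 4.74% and 2.68% of all genes.

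Among 22 genes for receptors of these proteins, 10 passed the filter, and 3 were called higher and 1 lower, beside 11.0% and 6.93% of all genes tested (median 0.83), or 4 and 2 of 10 without the resting library of mouse 6. With low-count genes included, 6 of 22 were called higher and 2 lower (4.74% and 2.68% of all genes). The integrin genes *Itgav* (140 ± 48.1 against 28.2 ± 11.3 CPM, log2 fold change 2.23, adjusted p = 0.00112), *Itgb3* (78.7 ± 35.7 against 3.40 ± 6.80 CPM, 4.36, adjusted p = 0.00217) and *Itga4* (67.3 ± 46.7 against 8.28 ± 8.09 CPM, 3.12, adjusted p = 0.00935, edgeR) rose in the resting zone. The first 2 encode the pair that binds fibronectin, periostin and osteopontin and is abundant on osteoclasts, whose list was also higher there (1430 to 4412 against 14.4 to 419 CPM). That list's part in the integrin differences was not tested. *Itga4* lost its call with the mouse as a block (3.14, adjusted p = 0.0162). With 7 and 14 proliferative counts, *Itgb3* and *Itga4* passed the filter only through the resting zone. *Sdc4*, a heparan sulfate proteoglycan and co-receptor for fibronectin, fell in the resting zone, at 213 ± 89.8 against 1008 ± 119 CPM (-2.25, SE 0.31, adjusted p = 0.000339).

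Of 15 genes for Gla proteins, their carboxylation and BMP ligands that matrix Gla protein binds, 3 passed the filter, and 1 was called higher and 0 lower, beside 11.0% and 6.93% of all genes tested (median 0.27). Without the resting library of mouse 6, 4 passed it, and 2 were called higher and 1 lower. With low-count genes included, 2 of 13 were called higher, the near-identical osteocalcin genes *Bglap* and *Bglap2*, between which counting could split reads, and 2 lower, *Ucma* and *Prrg1*, beside 4.74% and 2.68% of all genes. *Pros1*, encoding protein S, had 51.7 ± 29.1 against 11.8 ± 6.56 CPM (2.23, SE 0.54, adjusted p = 0.00767, edgeR), and lost its call with the mouse as a block (2.16, adjusted p = 0.0126). With 20 proliferative counts, *Pros1* passed the filter only through the resting zone. *Ucma* had 229 ± 126 against 475 ± 127 CPM (-1.04, adjusted p = 0.0371), and passed the threshold without the resting library of mouse 6 (-1.54, adjusted p = 0.00156). The γ-glutamyl carboxylase gene *Ggcx*, whose enzyme makes the Gla residues of both proteins, had 91.1 ± 44.7 against 73.8 ± 15.1 CPM (0.27, adjusted p = 0.65).

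For each of the 4 genes above the filter, the genes with the most similar log2 CPM profile over the 8 libraries were listed. Pearson's r was 0.989 for *Efemp1* with *Cst3* and 0.977 with *Meg3*, 0.983 for *Fn1* with *Adora1* and 0.981 with *Gm26906*, 0.976 for *Thbs1* with *Gtf2h3* and 0.975 with *S100b*, and 0.971 for *Mgp* with *Iqsec1* and 0.960 with *Syn3*. These values are descriptions over n = 8 libraries that share the zone difference and the high library of mouse 6. *S100b*, a calcium-binding protein of cartilage and nerve, shared with *Thbs1* a high resting value in mouse 6 (282 CPM), low values in the other resting libraries (48.6 to 69.7 CPM) and proliferative values of 135 to 203 CPM.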

How the data were processed

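RNA from laser-microdissected resting and proliferative chondrocytes was amplified by 2 rounds of in vitro transcription and sequenced. Per the labels and the study's methods, the authors aligned reads with HISAT2 2.1.0 to GRCm38 and counted them with HTSeq 0.11.2, and the deposited counts are unnormalized whole numbers. Another deposited table, made by the authors, lists the signal (scaled CPM) of each library, log2 fold changes, a likelihood ratio score, p-values and false discovery rates, and was used for gene names only. Both libraries of a number are from 1 mouse by the labels (correlation of deviations 0.194, 0.0104, 0.144 and 0.0635 in mice 1, 2, 6 and 13).

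The counts were tested with edgeR 4.0.16 in R 4.3.3: filter by zone (minimum count 10, minimum total 15), TMM factors, the quasi-likelihood test on the zone, and Benjamini-Hochberg adjustment over all genes of the fit. The mouse block is given beside it, because the methods name no block. DESeq2 1.42.0, other factors, filters and left-out libraries or mice were alternatives. Python 3.11.15 and matplotlib 3.10.9 made summaries and plots. Total counts of 192882 to 631474 per library set the precision. The genes, lists and tests were chosen with earlier results of these data known. Named genes are all 10, up to 4 tested genes per wider list with the lowest p, first-listed markers, and 2 most similar genes per gene above the filter. Other genes are named after their values were seen. Exon lengths are from GENCODE. Protein sequences were not used here.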

Additional observations from a re-analysis of the deposited data

Results flagged for a closer look

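Each of the 10 genes was checked in each zone for a library far from the other 3 (Dixon's ratio, the gap to the nearest library over the whole range). Of 20 such groups, 5 passed, where chance gives about 1 in 20 for independent normal values. These groups share libraries and some rest on few counts, so that rate is only a guide. In the resting zone, mouse 6 stood apart for *Efemp1* at 151 CPM (next 39.3 CPM) and for *Mgp* at 2385 CPM (next 746 CPM). Mouse 13 stood apart for *Fbln5* at 29.4 CPM, which rests on 6 counts. In the proliferative zone, mouse 1 stood apart for *Postn* at 5.82 CPM, the only library of that zone with a count, and mouse 2 for *Mgp* at 515 CPM (others 348 to 369 CPM).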

How the results depend on the processing

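*Fn1*, *Fbn1* and *Tnc* were called under each alternative that tested them, with and without the filter, and no alternative reversed the sign of any of the 10 genes. With 5 and 2 proliferative counts, *Fbn1* and *Tnc* passed the filter in some alternatives only through the resting zone, so those calls are descriptions. *Efemp2*, *Fbln1* and *Fbln5* were called under none. *Efemp1* lost its call without mouse 13 in the filtered fit, and without the resting library or both libraries of mouse 6 over all genes (adjusted p = 0.0108, 0.0156 and 0.0459). Over all genes it also lost it without the resting library of mouse 6 and the proliferative library of mouse 1 (adjusted p = 0.0208). *Postn* lost its call without mouse 6 over all genes and without the proliferative library of mouse 13 in the filtered fit (adjusted p = 0.0195 and 0.0142). Among all genes, 419 were called higher and 263 lower. These numbers became 829 and 468 over all genes with a count, 140 and 133 with at least 10 counts in every library, 635 and 426 at an adjusted p below 0.05, and 192 and 112 without mouse 13, 251 and 143 without mouse 2, and 337 and 170 without mouse 1. With the mouse as a replicate block they were 384 and 230. Leaving out 1 library gave 249 to 472 higher and 193 to 349 lower. Of the 10 genes, the 2 called higher in the filtered fit became 6 over all genes with a count, 5 without mouse 2, 1 without mouse 6, and 1 without the resting library of mouse 6 and the proliferative library of mouse 1 (added after seeing the data). Leaving out 1 library gave 1 to 5 higher (1 without the resting library of mouse 6, 5 without that of mouse 2, and 4 without any 1 of the proliferative libraries) and 0 to 1 lower, as between 3 and 8 of the 10 then passed the filter. The number called lower went from 0 to 1 without mouse 6 and without the 2 libraries just named, in both cases *Thbs1*. In the fit over all genes the 6 called higher became 3 without mouse 6, with 1 lower, and 4 to 6 when 1 library was left out, with 0 to 1 lower. Without the resting library of mouse 6 and the proliferative library of mouse 1, 4 were higher and 1 was lower. With all 8 libraries, the mouse block changed no call among the 10 genes except that of *Mgp* in the fit over all genes. Without mouse 6 it also ended that of *Thbs1* (adjusted p = 0.0114, against 0.009). Division by the longest transcript in place of all exons leaves *Efemp1* as it was and raises the level of each other gene alike in both zones, in the resting and proliferative zone to 1543 and 558 CPM per kb for *Mgp*, 82.6 and 10.6 for *Fn1*, 2.61 and 10.4 for *Efemp2*, and 8.92 and 0.28 for *Postn*, which then passed *Fbn1* in the resting and *Tnc* in the proliferative zone. Upper-quartile factors lowered the log2 fold changes of all genes by a median of 0.22. Low counts limit *Fbln1* and *Fbln5*, with 16 and 14 resting and 8 proliferative counts each.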
